A study of Mus musculus with 12 samples.

Results

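The complement genes described here are 9 rows of the deposited expression table, chosen by symbol: *C1qa*, *C1qb*, *C1qc*, *C3*, *C4b*, *C3ar1*, *C5ar1*, *Cfp* and *Serping1*. All 9 listed symbols were found among the 18180 genes in the table. They were followed across the PDGFRA+, PDGFRA-, GAL1+ and GAL1- populations, all EGFR+, each sorted from the same 3 mouse glioblastomas (T3, T4 and T5), so each population has 3 libraries and the whole set has 12. GAL1 is Galectin-1, the product of *Lgals1*. PDGFRA is a receptor of oligodendrocyte progenitors.

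All 12 libraries come from one tumor model and none comes from normal brain. The mice carry a conditional human EGFR transgene that Cre switches on, with Cdkn2a -/- alleles and a conditional luciferase reporter, on a background mixed from C57Bl/6J, 129S4, FVBN/J and Balb/cJ. Tumors were started in adult animals by injecting a Cre lentivirus into the striatum and were collected at end stage. The lentiviral plasmids are given as iCre alone or TGFa with iCre, and which tumor received which is not given in the sources used here. The host animals keep their own myeloid cells and vessels, and the 4 populations of a tumor number are taken to come from the same animal. The sorted cells are described in the study as CD45-, while its account of the sort lists an EGFR antibody used with one against PDGFR or Galectin-1.

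Complement is a cascade of secreted proteins, receptors and brakes. C1q, assembled from the products of *C1qa*, *C1qb* and *C1qc*, starts the classical pathway. C4 and C2 then form an enzyme that cuts C3, the fragment C3a is sensed by C3ar1 and the later fragment C5a by C5ar1. Properdin, the product of *Cfp*, stabilises the alternative pathway enzyme, and the C1 inhibitor, the product of *Serping1*, blocks the C1 proteases. In brain, C1q is made mainly by microglia and macrophages, which also carry both anaphylatoxin receptors, while *C4b* is transcribed in astrocytes and oligodendrocyte lineage cells as well.

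The 3 C1q genes lie side by side on mouse chromosome 4, with 0 protein-coding genes between *C1qb* and *C1qc* and 0 between *C1qc* and *C1qa* in RefSeq. Because they moved together in every library, the 250 bases before the annotated start are shown for *C1qb* and *C1qc*, and for *C3ar1* as a receptor gene with a similar profile. Sequences are from RefSeq (GRCm38.p6), read 5′ to 3′ towards the gene, and 6 of the 9 members matched that promoter table. Capitals mark matches to any of 6 short motifs searched on both strands.
C1qb, chr4:136886201-136886450, minus strand: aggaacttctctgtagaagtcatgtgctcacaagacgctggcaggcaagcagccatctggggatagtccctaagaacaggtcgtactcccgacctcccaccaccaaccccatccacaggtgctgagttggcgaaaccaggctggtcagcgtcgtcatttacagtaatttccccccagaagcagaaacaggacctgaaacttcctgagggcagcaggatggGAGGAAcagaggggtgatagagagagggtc
C1qc, chr4:136892915-136893164, minus strand: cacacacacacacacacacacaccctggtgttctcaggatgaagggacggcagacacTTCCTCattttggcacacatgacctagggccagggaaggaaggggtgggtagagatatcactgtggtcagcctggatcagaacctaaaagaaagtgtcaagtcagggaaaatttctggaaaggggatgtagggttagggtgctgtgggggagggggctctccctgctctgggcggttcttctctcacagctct
C3ar1, chr6:122856158-122856407, minus strand: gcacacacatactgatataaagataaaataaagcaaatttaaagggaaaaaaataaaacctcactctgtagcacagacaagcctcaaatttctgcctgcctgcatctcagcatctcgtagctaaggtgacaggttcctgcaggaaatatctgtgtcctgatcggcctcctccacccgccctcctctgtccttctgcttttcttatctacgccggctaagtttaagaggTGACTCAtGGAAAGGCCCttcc

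The capitals in *C1qb* are GAGGAA, the core bound by PU.1, a myeloid transcription factor, at -30 to -25 from the start. In *C1qc* the same core lies on the other strand at -193 to -188. In *C3ar1* the first run is TGANTCA, the AP-1 motif, at -22 to -16, and the second is the NF-kB motif on the other strand at -14 to -5, and the runs do not overlap. GAGGAA was found in 23.3% of the 32851 promoter windows in the table, TGANTCA in 6.75% and the NF-kB motif in 1.41%. The *C5ar1* window held a CCAAT box on the other strand, a motif found in 33.8% of windows. The interferon-stimulated response element (ISRE; 2.98% of windows) and TTCNNNGAA (7.02%) were in none of the 6 member windows, and those of *C3* and *Cfp* held none of the 6 motifs. These matches are descriptions of letters, not of bound sites.

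Values are log2 CPM (log2 of the read count scaled to library size). Reads were recovered by taking the lowest value of each library as a count of 0, and they ran from 9851175 to 24117541 per library, so every member was well sampled, and the lowest value of any member, *C5ar1* in GAL1- T3, stood for about 28.3 reads. Such read numbers cover counting error only. The sort shows in the RNA in part. *Lgals1* was 7.66 ± 0.27 (SD, n = 3) in GAL1+ and 6.38 ± 0.39 in GAL1- cells, and *Pdgfra* was 10.30 ± 0.45 in PDGFRA+ and 8.70 ± 1.38 in PDGFRA- cells, lowest in T5. The *Egfr* row is the mouse gene, from reads aligned to the mouse genome, while the study sorts on human EGFR. That row was lower in GAL1+ cells, at 8.41 ± 0.68, than in GAL1- cells, at 10.51 ± 0.12. How far it reflects the human transgene was not tested. One library stood apart from its group. On the first principal component (58.5% of the variance) PDGFRA- T5 was at 82.4, inside the GAL1+ range of 63.8 to 120, while PDGFRA- T3 and T4 were at -13.5 and -16.8. All comparisons share the same fit, so counts of members in comparisons of a PDGFRA with a GAL1 population are given with and without it.

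Pan-leukocyte, microglia and macrophage RNA was present in every population and moved with most members. *Ptprc*, which encodes CD45, was 8.65 ± 0.40 log2 CPM in GAL1+ cells and 4.60 ± 0.79 in GAL1- cells, with PDGFRA- cells at 7.46 ± 1.06 and PDGFRA+ cells at 6.92 ± 0.70. The mean of 12 pan-leukocyte genes, all 12 of them in the table, ran from 7.37 to 7.81 in GAL1+ and from 2.61 to 3.92 in GAL1- libraries, with PDGFRA- libraries at 5.44 to 7.48 and PDGFRA+ libraries at 5.28 to 6.47. Summed, those genes made up 0.275% to 0.333% of the CPM in GAL1+ libraries and 0.0114% to 0.0282% in GAL1- libraries, and the ranges were 0.0716% to 0.282% in PDGFRA- and 0.0740% to 0.157% in PDGFRA+ libraries. The 10 microglia genes averaged 6.26 to 6.87 log2 CPM in GAL1+ and 2.14 to 3.16 in GAL1- libraries. The 10 macrophage genes averaged 6.22 to 6.60 in GAL1+ and -0.31 to 1.33 in GAL1- libraries. No gene of these 3 lists was under a floor of 3 reads in all libraries of a population. The 7 T and NK cell genes in the table averaged 0.32 to 1.37 log2 CPM in GAL1+ and -0.52 to 1.49 in GAL1- libraries. The lists' part in the results below was not tested. In bulk samples such as these, fewer cells of a type and less RNA per cell cannot be told apart.

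GAL1+ cells had the highest mean of 8 members, and GAL1- cells the lowest of the same 8. *C4b* was the exception, at a similar high level in all 4 populations. Per kilobase of exon, *C1qa* was the most abundant member in GAL1+ cells, at 10.44 ± 0.33 log2 CPM per kb, and *C4b* in GAL1- cells, at 7.05 ± 0.36.

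**Figure D1:**
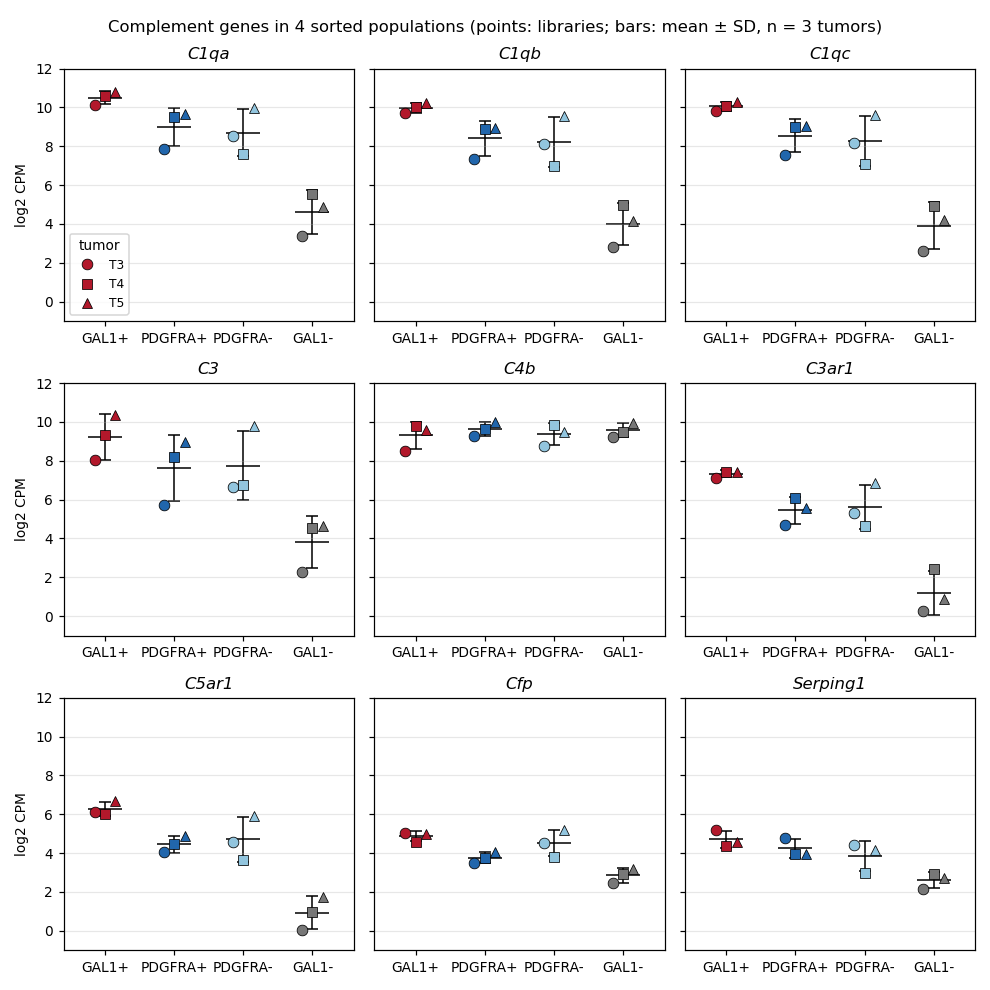
Log2 CPM of each complement gene in GAL1+, PDGFRA+, PDGFRA- and GAL1- libraries, with one point per library, the marker shape giving the tumor and black bars the mean ± SD of 3 tumors. In 8 panels the GAL1- points are lowest, with *C1qa* between 3.36 and 5.55, while *C4b* lies between 8.51 and 10.02 everywhere.

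*C1qa* was 10.14, 10.58 and 10.78 log2 CPM in GAL1+ cells of T3, T4 and T5, 7.87, 9.49 and 9.65 in PDGFRA+ cells, 8.51, 7.58 and 9.99 in PDGFRA- cells, and 3.36, 5.55 and 4.89 in GAL1- cells. The GAL1+ libraries lay above all others and the GAL1- libraries below all others, and both PDGFRA populations overlapped. *C1qb* followed it at 9.72, 10.01 and 10.21 in GAL1+ cells, 7.36, 8.90 and 8.96 in PDGFRA+ cells, 8.11, 6.97 and 9.54 in PDGFRA- cells and 2.83, 4.97 and 4.15 in GAL1- cells. *C1qc* had 9.81, 10.06 and 10.28 in GAL1+ cells, 7.57, 9.01 and 9.06 in PDGFRA+ cells, 8.15, 7.07 and 9.61 in PDGFRA- cells and 2.58, 4.92 and 4.22 in GAL1- cells. These chains are subunits of one protein, and their proportions barely moved while their level spanned a wide range. *C1qa* exceeded *C1qb* by 0.40 to 0.74 log2 CPM and *C1qc* by 0.29 to 0.78 over the 12 libraries.

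*C3*, the central protein of the cascade, was 8.02, 9.34 and 10.35 log2 CPM in GAL1+ cells of T3, T4 and T5, 5.73, 8.18 and 8.99 in PDGFRA+ cells, 6.66, 6.78 and 9.80 in PDGFRA- cells and 2.25, 4.56 and 4.64 in GAL1- cells. T3 was lowest and T5 highest in each of the 4 populations, and *C3* had a wider spread between tumors in GAL1+ cells (SD 1.17) than *C1qa* (SD 0.33). PDGFRA+ T4 and T5 and PDGFRA- T5 lay within the GAL1+ range, and the GAL1- libraries lay below every other library.

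*C4b*, the classical pathway protein upstream of C3, was 8.51, 9.79 and 9.61 log2 CPM in GAL1+ cells, 9.26, 9.64 and 10.02 in PDGFRA+ cells, 8.78, 9.86 and 9.496 in PDGFRA- cells and 9.24, 9.504 and 9.95 in GAL1- cells. All 4 ranges overlapped. *C4b* has a near-identical copy, *C4a*, and multi-mapping reads were counted as fractions. *C4b* exceeded *C4a* by 1.96 to 2.09 log2 CPM in every library, so the split of reads within the pair is uncertain.

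The receptors tracked C1q at lower levels. *C3ar1* was 7.14, 7.43 and 7.43 log2 CPM in GAL1+ cells of T3, T4 and T5, 4.70, 6.07 and 5.55 in PDGFRA+ cells, 5.33, 4.63 and 6.86 in PDGFRA- cells and 0.27, 2.45 and 0.88 in GAL1- cells. *C5ar1* was 6.09, 6.03 and 6.67 in GAL1+ cells, 4.03, 4.45 and 4.89 in PDGFRA+ cells, 4.55, 3.63 and 5.93 in PDGFRA- cells and 0.05, 0.97 and 1.76 in GAL1- cells. For both, every GAL1+ library was above and every GAL1- library below all the rest.

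*Cfp* and *Serping1* spanned less. *Cfp* was 5.05, 4.56 and 4.999 log2 CPM in GAL1+ cells, 3.49, 3.75 and 4.05 in PDGFRA+ cells, 4.54, 3.82 and 5.20 in PDGFRA- cells and 2.44, 2.93 and 3.17 in GAL1- cells. Its PDGFRA- and GAL1+ ranges overlapped, and GAL1- cells were below both. *Serping1* was 5.21, 4.36 and 4.56 in GAL1+ cells, 4.80, 3.94 and 3.97 in PDGFRA+ cells, 4.44, 2.97 and 4.16 in PDGFRA- cells and 2.12, 2.92 and 2.74 in GAL1- cells. T3 held its highest value in 3 populations and its lowest in GAL1- cells. Only GAL1- cells lay apart from the other populations.

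The comparison of GAL1+ with GAL1- cells asks how the cells on either side of the Galectin-1 gate differ. Of the 9 members, 8 were called higher in GAL1+ cells (limma, adjusted p under 0.05, with Benjamini-Hochberg adjustment across the whole table), against 28.9% of all genes called higher and 29.3% called lower. The median log2 fold change was 5.42 over the members and -0.03 over all genes. *C1qa* rose 59.6 fold, a log2 fold change of 5.90 (SE 0.53, adjusted p = 4.55e-05), and *C1qb* and *C1qc* by log2 fold changes of 5.99 and 6.15. *C3* rose by 5.42 (SE 0.47), *C3ar1* by 6.14 (SE 0.57) and *C5ar1* by 5.34 (SE 0.35, adjusted p = 3.93e-05). *Cfp* rose by 2.02 (SE 0.25, adjusted p = 0.000152) and *Serping1* by 2.11 (SE 0.37, adjusted p = 0.000906). All 8 were higher in 3 of 3 tumors. *C4b* had a log2 fold change of -0.26 (95% interval -0.71 to 0.19, adjusted p = 0.297). Without T4 its value was -0.53 and it was called lower. The 12 pan-leukocyte genes were also all called higher, with a median log2 fold change of 4.30, as were 10 of 10 macrophage genes (median 5.81) and 10 of 10 microglia genes (median 4.45), while 9 of 9 oligodendrocyte lineage genes were called lower (median -2.81). Vessel and neutrophil lists moved as well, with 9 of 10 endothelial genes (median 2.44), 8 of 10 pericyte and fibroblast genes (median 1.95) and 4 of 6 neutrophil genes (median 1.65) called higher. *Cspg4*, of the pericyte list, was called lower. Summed, that list made up 0.0343% to 0.112% of the CPM in GAL1+ and 0.104% to 0.118% in GAL1- libraries. Of 7 T and NK cell genes 1 was called higher (median -0.19), and of 9 astrocyte genes 5 were called lower (median -1.35). The endothelial genes averaged 3.498 to 4.73 log2 CPM in GAL1+ and 1.43 to 2.496 in GAL1- libraries, and the part of these lists was not tested.

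**Figure D2:**
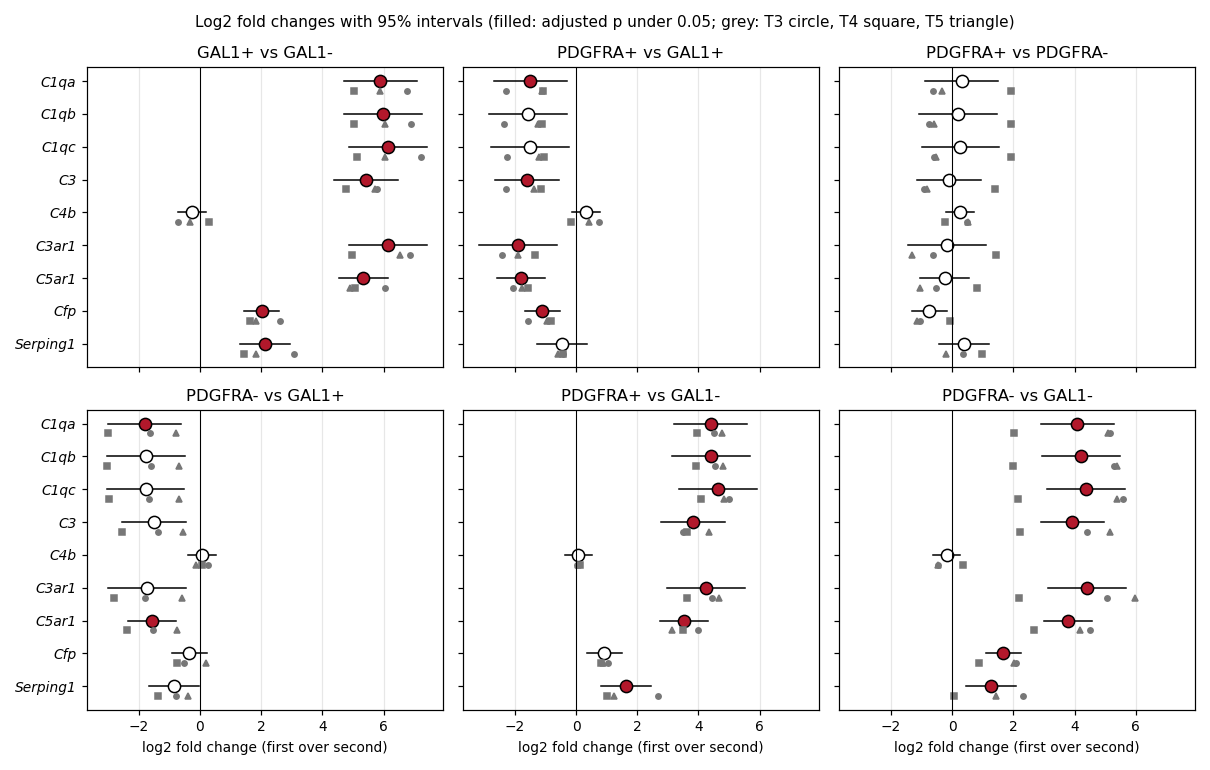
Log2 fold change of each member in the 6 comparisons, as the first population over the second, with 95% intervals. Filled circles passed an adjusted p of 0.05 and small grey markers are the single tumors. *C1qc* reaches 6.15 in GAL1+ over GAL1- cells, and in PDGFRA+ over PDGFRA- cells all circles are open and T4 lies apart from T3 and T5 for the C1q genes.

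PDGFRA and Galectin-1 are the proteins the study sorts on, and this comparison sets their positive populations side by side. Of the 9 members, 5 were called lower in PDGFRA+ cells, against 17.0% of all genes called lower and 20.9% called higher. The median log2 fold change was -1.51 over the members and 0.01 over all genes. *C5ar1* fell by 1.81 on the log2 scale (SE 0.35, adjusted p = 0.00482), *C3ar1* by 1.89 (SE 0.57, adjusted p = 0.0271), *C3* by 1.60 (SE 0.47, adjusted p = 0.0240) and *Cfp* by 1.11 (SE 0.25, adjusted p = 0.00947). *C1qa* fell by 1.498 on that scale (SE 0.53, adjusted p = 0.0497). Its call held in 8 of the 14 alternatives of the closing section. It was lost in the others, among them robust eBayes (adjusted p = 0.0531 by limma). The call held in 10 for *C3*, 11 for *C3ar1*, and 13 each for *C5ar1* and *Cfp*. *C1qb* and *C1qc* had close log2 fold changes of -1.57 and -1.51 and lay just outside the threshold, with adjusted p = 0.0528 and 0.0603. Without the PDGFRA- T5 library both were called (adjusted p = 0.0362 and 0.0440 by limma). The members called were then 7, and all genes called 7677 in place of 6900. *Serping1* had -0.47 (95% interval -1.29 to 0.35) and *C4b* 0.33 (95% interval -0.12 to 0.78). The number of members called was 0 without T3 and 2 without T5. All genes called also fell, to 2110 without T3 and 4267 without T5 in place of 6900. Without T4 the members called were 7 lower and 1 higher, the last being *C4b* at 0.58 (adjusted p = 0.0416 by limma). All genes called without T4 stayed within 1.5 times 6900. *C4b* was also called higher with quantile normalization, at 0.66 (adjusted p = 0.0229 by limma). T3 had the largest differences of the 3 tumors for the C1q genes (*C1qa* -2.28). All 12 pan-leukocyte genes were called lower in the same comparison, with a median of -1.57.

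Between PDGFRA+ and PDGFRA- cells, 0 of 9 members and 0.00% of all genes were called by limma, while 2137 genes and 1 member had an unadjusted p under 0.05. That member was *Cfp*, with a log2 fold change of -0.76 (SE 0.25, adjusted p = 0.320) and the same sign in 3 of 3 tumors. The 95% interval of *C1qa* ran from -0.88 to 1.503 and that of *C3* from -1.16 to 0.93, so differences inside these intervals could not be told from 0. Tumors disagreed in sign. *C1qa* had 7.87 log2 CPM in PDGFRA+ and 8.51 in PDGFRA- cells of T3, 9.49 and 7.58 in T4, and 9.65 and 9.99 in T5. The pan-leukocyte mean had the same split, with PDGFRA+ above PDGFRA- cells in T4 and below them in T3 and T5. The fitted value of *C1qa* changed from 0.31 to -0.49 without T4, and that of *C3* from -0.11 to 0.36 without the PDGFRA- T5 library.

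PDGFRA- cells had 2 members called lower than in GAL1+ cells, against 6.91% of all genes called lower and 13.2% called higher. These were *C1qa*, which fell by 1.81 on the log2 scale (SE 0.53, adjusted p = 0.0409), and *C5ar1*, which fell by 1.56 (SE 0.35, adjusted p = 0.0188). *C3*, with a log2 fold change of -1.49, had an adjusted p of 0.0500421. The count was 6 without the PDGFRA- T5 library, with *C1qa* at -2.26 and *C5ar1* at -1.89, and 0 without T3 or without T4. All genes called moved too, from 3652 to 5837 without that library, 788 without T3 and 0 without T4. Against GAL1- cells, which both PDGFRA comparisons share, PDGFRA+ cells had 7 members called higher, against 8.26% of all genes called higher and 0.0110% called lower. *C1qc* rose by a log2 fold change of 4.64 (SE 0.56, adjusted p = 0.00199), and *Cfp*, at 0.91, was not called (adjusted p = 0.0596). Without the PDGFRA- T5 library *Cfp* was called (adjusted p = 0.0376 by limma). The members called were then 8, and all genes called 1886 in place of 1504. Without T3, 0 members and 0 of all genes were called. PDGFRA- cells had 8 members called higher than in GAL1- cells, against 16.2% of all genes called higher and 6.88% called lower. Without the PDGFRA- T5 library 7 members were called higher, and all genes called were 2009 in place of 4200. *C3ar1* rose most, by a log2 fold change of 4.41 (SE 0.57, adjusted p = 0.00106), and *Serping1* least, by 1.26 (SE 0.37, adjusted p = 0.0358). The *Serping1* call was lost without T3, without T5 and without the PDGFRA- T5 library, at log2 fold changes of 0.73, 1.18 and 1.07, and also without the tumor block, with only the 2 populations and with eBayes without trend. *C4b* was called in none of the 3. Of the 12 pan-leukocyte genes, 4 were called lower in PDGFRA- than in GAL1+ cells, and all 12 were called higher in each PDGFRA population than in GAL1- cells.

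The level of each member was also set against the mean of the 12 pan-leukocyte genes in the same library. These are differences of log2 CPM, given as a description with no test, over libraries that share tumors. Over the 12 libraries the Pearson correlation with that mean was 0.99 for each C1q gene and *C3ar1*, 0.98 for *C5ar1*, 0.96 for *C3*, 0.94 for *Cfp*, 0.83 for *Serping1* and -0.10 for *C4b*. By ranks (Spearman) it was 0.89 for *Cfp*, 0.65 for *Serping1* and 0.03 for *C4b*, and 0.94 to 0.99 for the others. The points share populations and tumors.

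**Figure D3:**
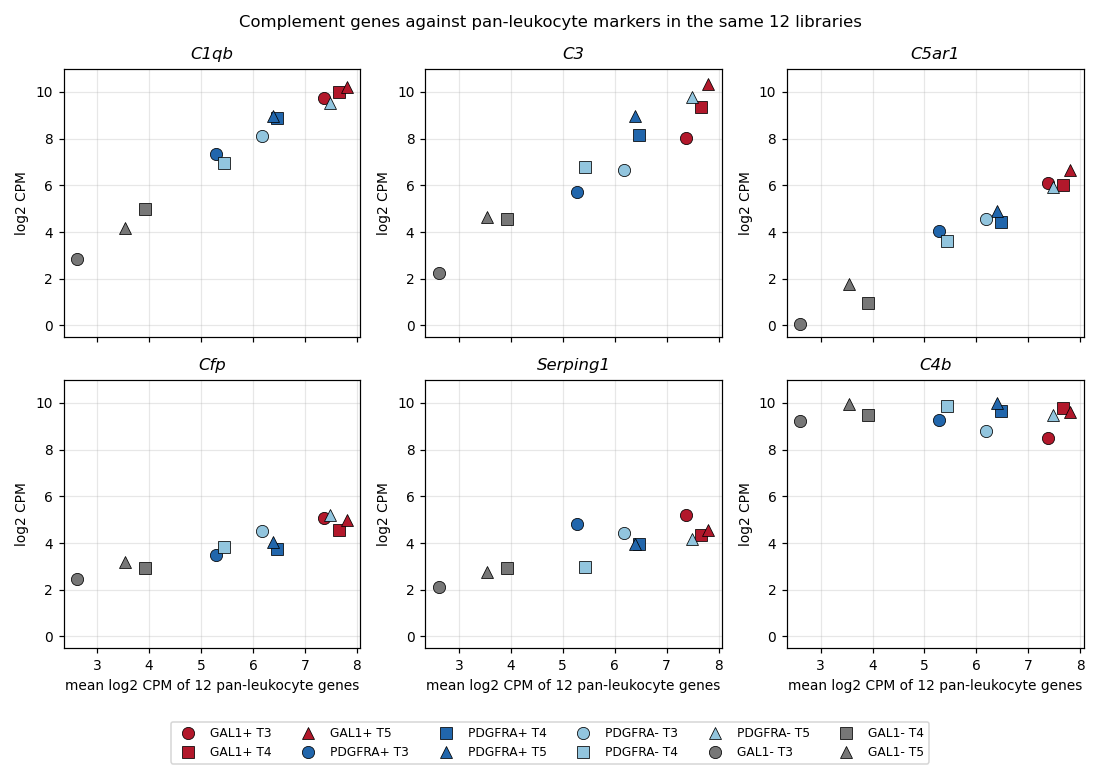
Log2 CPM of 6 members (vertical axes) against the mean log2 CPM of 12 pan-leukocyte genes (horizontal axes) in the same libraries, coloured by population and shaped by tumor. *C1qb* climbs along one line from GAL1- to GAL1+ libraries, *C3* splits by tumor with T5 above T3, *Cfp* and *Serping1* climb less steeply, and *C4b* stays level.

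*C1qb* exceeded the leukocyte mean by 2.35 to 2.41 in GAL1+ libraries, 2.08 to 2.57 in PDGFRA+ libraries, 1.53 to 2.06 in PDGFRA- libraries and 0.22 to 1.06 in GAL1- libraries. The GAL1+ and PDGFRA+ ranges overlapped and the GAL1- range lay below the rest. *C3* exceeded it by 0.65, 1.67 and 2.54 in GAL1+ cells of T3, T4 and T5, by 0.45, 1.71 and 2.60 in PDGFRA+ cells and by 0.48, 1.34 and 2.32 in PDGFRA- cells. In GAL1- cells the *C3* difference was -0.36, 0.64 and 1.10, below the other populations of the same tumor. T3 was lowest and T5 highest for *C3* on this scale too, in all 4 populations. *Cfp* ran the other way, at -0.99 to -0.17 in GAL1- and -3.10 to -2.32 in GAL1+ libraries. *Serping1* was at -0.99 to -0.49 in GAL1- and -3.31 to -2.16 in GAL1+ libraries. *C4b* was 5.58 to 6.62 above the leukocyte mean in GAL1- and 1.14 to 2.13 above it in GAL1+ libraries.

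A list of 46 other complement genes was compiled, and 29 were in the table. In GAL1+ against GAL1- cells, 17 of the 29 (58.6%) were called higher and 7 (24.1%) lower, against 28.9% and 29.3% of all genes, with a median log2 fold change of 1.82. In PDGFRA+ against GAL1+ cells, 6 (20.7%) were called higher and 12 (41.4%) lower, against 20.9% and 17.0% of all genes, with a median of -0.70. The share called lower in the first comparison and higher in the second was thus no greater than that of all genes. In PDGFRA+ against PDGFRA- cells 0 were called by limma and 4 had an unadjusted p under 0.05.

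**Figure D4:**
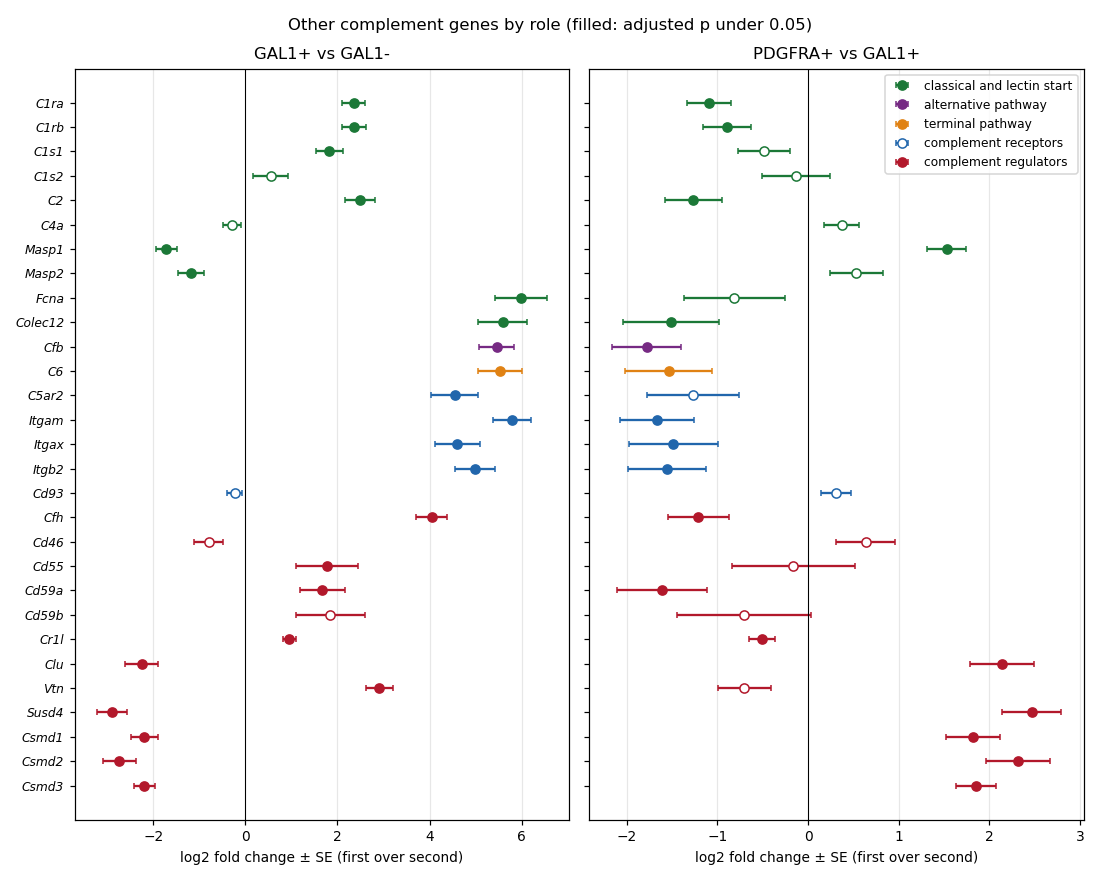
Log2 fold changes ± SE of the 29 other complement genes, coloured by role, in GAL1+ over GAL1- cells (left) and PDGFRA+ over GAL1+ cells (right), with filled circles for an adjusted p under 0.05. *Susd4* (-2.88 on the left and 2.47 on the right), *Clu* and the Csmd genes lie on the side opposite to *Cfb* and *Itgam*.

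Of the 10 genes that start the classical and lectin pathways, 6 were called higher in GAL1+ than in GAL1- cells. *Colec12*, a scavenger receptor of the collectin family, rose by a log2 fold change of 5.59 (SE 0.53). *Fcna*, a ficolin, was called higher too, with 19.17 to 111 recovered reads per library in GAL1+ and 0 to 1.33 in GAL1- cells, and no fold is given for so few reads. *Masp1* and *Masp2*, the lectin pathway proteases, were the 2 called lower. The alternative pathway was represented by *Cfb*, which encodes factor B. *Cfb* was 7.15, 7.93 and 8.56 log2 CPM in GAL1+ cells of T3, T4 and T5 and 1.40, 2.68 and 3.21 in GAL1- cells, a rise of 5.45 (SE 0.38, adjusted p = 3.93e-05). It fell by 1.78 (SE 0.38, adjusted p = 0.00725) in PDGFRA+ against GAL1+ cells.

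*C6*, of the membrane attack complex, was the only terminal pathway gene in the table. It was 0.46, 1.497 and 4.83 log2 CPM in GAL1+ cells of T3, T4 and T5, and T5 was highest in all 4 populations. It was called higher in GAL1+ cells, with 23 to 351.2 recovered reads per library, than in GAL1- cells, with 0 to 10, and no fold is given for so few reads. Among 5 receptor genes, 4 were called higher in GAL1+ than in GAL1- cells. *Itgam*, the alpha chain of complement receptor 3, rose by 5.78 (SE 0.41, adjusted p = 3.93e-05), and it and its partner *Itgb2* fell by 1.67 and 1.56 in PDGFRA+ against GAL1+ cells. *Itgam* is also a general myeloid marker.

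Of 12 regulators, 5 (41.7%) were called higher and 5 (41.7%) lower in GAL1+ than in GAL1- cells, with a median of 0.08, and all genes were also called in both directions, 28.9% higher and 29.3% lower. *Susd4*, a membrane protein that inhibits complement, was 4.51, 2.20 and 2.72 log2 CPM in GAL1+ cells of T3, T4 and T5 and 6.20, 5.84 and 6.04 in GAL1- cells, so the groups did not overlap. It fell by 2.88 on the log2 scale (SE 0.33, adjusted p = 9.49e-05). *Csmd2* fell by 2.74 (SE 0.35), *Clu*, or clusterin, by 2.25 (SE 0.36) and *Csmd1* by 2.19 (SE 0.30). The Csmd proteins are large neural membrane proteins with complement control domains. In PDGFRA+ against GAL1+ cells, *Susd4* rose by 2.47 (SE 0.33, adjusted p = 0.00147), *Csmd2* by 2.31 (SE 0.35), *Clu* by 2.14 (SE 0.36) and *Csmd3* by 1.85 (SE 0.22), while *Cd59a*, which blocks the membrane attack complex, fell by 1.61 (SE 0.49, adjusted p = 0.0298). The oligodendrocyte lineage list moved the same way, with 9 of 9 genes called higher in PDGFRA+ than in GAL1+ cells (median 2.39). Without T3 the number of other complement genes called in PDGFRA+ against GAL1+ cells was 6 in place of 18. The number of all genes was then 2110 in place of 6900. In the remaining comparisons, 5 (17.2%) were called higher and 9 (31.0%) lower in PDGFRA- than in GAL1+ cells, against 13.2% and 6.91% of all genes. In PDGFRA+ against GAL1- cells 14 (48.3%) were higher and 0 lower, against 8.26% and 0.0110%. In PDGFRA- against GAL1- cells 15 (51.7%) were higher and 3 (10.3%) lower, against 16.2% and 6.88%. Without the PDGFRA- T5 library the number called was 16 in place of 14 in PDGFRA- against GAL1+ cells and 15 in place of 18 in PDGFRA- against GAL1- cells. All genes called were then 5837 in place of 3652 and 2009 in place of 4200. Of the last 3 comparisons, the first had 0 other complement genes called without T4 and the second had 0 without T3. In both cases 0 of all genes were called.

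Likeness was measured as the Pearson correlation of log2 CPM over the 12 libraries, among 10279 genes with a mean above 3. These libraries share tumors, and the correlations are descriptions. For the mean of the C1q genes, the closest were *Mpeg1*, *Itgb5*, *Ptgs1*, *Adgre1* and *Apoe*, each at 0.997. *Mpeg1* and *Adgre1* are macrophage genes. For *C3*, the closest were *Mir5107*, which lies inside *Cd74* and shares its reads, *Cd74* itself, the MHC class II invariant chain, and *Itgad*, *Itgax* and *Clec7a*, from 0.989 to 0.998. *C3ar1* was closest to *Selenop*, *F11r*, *Itgam*, *Rac2* and *Mpeg1*, and *C5ar1* to *Pla2g7*, *Cd14*, *Ccl6*, *Tlr13* and *Ms4a6c*. *Cfp* was closest to *Ifi205*, *Cxcl2*, *Cyp4f18*, *Il7r* and *Rab11fip1* (0.98 to 0.99). *Serping1* was closest to *Ccl7*, *Abcb1a*, *Ccl9*, *Cxcl1* and *Tnfaip2* (0.90 to 0.93), of which *Abcb1a* encodes a drug transporter of brain endothelium. For *C4b*, its copy *C4a* was at 0.997, and the next, *Snhg4*, *Med13l*, *Src* and *Ankrd10*, were at 0.887 to 0.920.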

How the data were processed

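Bulk RNAseq was made from 12 libraries (SMARTer Stranded Total RNAseq v3 kits for pico input). The authors trimmed reads with fastp, aligned them with STAR to mm39, counted exons with featureCounts with multi-mapping reads as fractions, filtered low genes, and applied TMM and voom. The strand setting of the counting is not given in the sources used here. The deposited values are log2 CPM, with voom's offset of 0.5. Reads were recovered by taking the lowest value of each library as a count of 0, and 41.3% to 59.2% of recovered values were within 0.01 of a whole number, so no count model was run. Because of the filter, a gene that is not in the table was not analysed here.

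A model with population and tumor was fitted to all 18180 genes and 12 libraries with limma 3.58.1 in R 4.3.3 (moderated test with trend, two-sided, 6 residual and 3.49 prior degrees of freedom), and genes were called at an adjusted p under 0.05, with Benjamini-Hochberg adjustment across the table. It was also run on simulated data with known changes, and the outcome is not given here. The tumor number in the labels pairs libraries of the same tumor, and deviations from population means of same-tumor libraries correlated at 0.486 on average (18 pairs, 0.140 to 0.662). Each tumor number is taken as 1 animal, which the labels do not state. The members and lists were chosen with earlier results of these data known. Named genes were the 9 members, the 4 largest rises and 4 largest falls among called other complement genes in GAL1+ against GAL1- and PDGFRA+ against GAL1+ cells, the 5 genes most correlated with the C1q mean and with each other member (mean log2 CPM above 3, predicted genes left out), and level checks. *Masp1* and *Masp2* were named after their values were seen. Exon lengths are from GENCODE vM21 (GRCm38) and promoters from RefSeq. Alternatives are those named in the closing section. The description of the mouse model is not complete, since 1 item of it is not reported here. Figures were drawn with matplotlib 3.10.9.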

Additional observations from a re-analysis of the deposited data

How the results depend on the processing

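Of 756 alternative values, 654 kept their direction and side of the threshold, 41 lost a call, 46 gained one and 15 changed sign. The alternatives were no tumor block, only the 2 populations compared, eBayes without trend or robust, voom weights on recovered reads, vooma weights, log2(CPM + 1), a low-value filter, quantile normalization, median centring, and leaving out each tumor or PDGFRA- T5. A fold change above 1.5 was required in addition for the counts of called genes alone. The cause of the changes was not tested, and fits to fewer libraries have fewer degrees of freedom.

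Members called in PDGFRA+ against GAL1+ cells (5) were 2 without the paired tumor block and 8 with only the 2 populations. Without 1 tumor they were 0 to 8 (7 lower and *C4b* higher). All genes called there (6900) were 3154 without the block, 2110 without T3 and 4267 without T5, and stayed within 1.5 times 6900 otherwise. In PDGFRA- against GAL1+ cells (2) the members called were 0 without the block and 1 with eBayes without trend or quantile normalization. They were 6 with only the 2 populations, voom or vooma weights, log2(CPM + 1), median centring or without PDGFRA- T5. Without 1 tumor they were 0 to 2. All genes called there (3652) were 725 without the block, 1893 with only the 2 populations and 5837 without PDGFRA- T5. They were 788 without T3 and 0 without T4, and stayed within 1.5 times 3652 otherwise. In PDGFRA+ against GAL1- cells (7) the members called were 0 to 7 without 1 tumor. All genes called there (1504) were 0 without T3 and 717 without T5. In the remaining comparisons the count of members stayed within 1.5 times its value under all alternatives run, at 0 for PDGFRA+ against PDGFRA- cells.

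Values of PDGFRA+ against PDGFRA- cells that changed sign ranged, without 1 tumor or without PDGFRA- T5, from -0.488 to 0.789 for *C1qa*, from -0.666 to 0.712 for *C1qb*, from -0.562 to 0.758 for *C1qc*, from -0.871 to 0.363 for *C3*, from -0.97 to 0.482 for *C3ar1* and from -0.784 to 0.148 for *C5ar1*. *C4b* in PDGFRA- against GAL1+ cells was -0.0662 with median centring and -0.0234 to 0.195 without 1 tumor or PDGFRA- T5, and in PDGFRA+ against GAL1- cells it was -0.0922 with quantile normalization and -0.0379 with median centring. *C4b* was called lower in GAL1+ than in GAL1- cells with quantile normalization (-0.75) and without T4 (-0.53), and higher in PDGFRA+ than in GAL1+ cells under the same alternatives (0.66 and 0.58).

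All genes called were 2110 (without T3) in place of 6900 in PDGFRA+ against GAL1+ cells, 0 (without T4) to 5837 (without PDGFRA- T5) in place of 3652 in PDGFRA- against GAL1+ cells, 0 (without T3) to 3386 (only the 2 populations) in place of 1504 in PDGFRA+ against GAL1- cells, and 920 (without T5) in place of 4200 in PDGFRA- against GAL1- cells. Depth limits the members little, since the lowest library value stood for about 28.3 reads.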
